A study of Mus musculus with 18 samples.

Results

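The genes described here are 47 components of the machinery that copies DNA, followed in mouse neural crest (NC) cells that were driven towards osteoblasts with or without FGF2 and with or without knockdown of Yap and Taz. They were taken from a list written by hand and matched by gene symbol to the 55335 gene identifiers of the count files. Every one of the 47 was found and passed the filter on low counts in each fit. By role, 8 act in licensing of replication origins, 14 belong to the replicative helicase or activate it, 19 are polymerase and fork proteins, 4 supply nucleotides and 2 assemble chromatin behind the fork.

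The cells were O9-1, a single line of NC cells of wildtype genotype that was isolated from the head of mouse embryos, so the replicates were samples of 1 line rather than of several animals. RNA-seq of polyadenylated RNA was available for 18 libraries, taken after 2.5 (d2.5) or 5 (d5) days in osteoblast differentiation medium, with 3 replicates in each of 3 groups a day. Ctrl+vehicle cells carried scramble siRNA and received no FGF2, Ctrl+FGF2 cells carried scramble siRNA and received FGF2, and Y/T dKD+FGF2 cells carried pools of siRNA to Yap and Taz and received FGF2. There was no knockdown group without FGF2, so the knockdown was read only under FGF2. The study asked whether Yap and Taz mediate what FGF2 does to NC cells. Nothing in the labels ties replicates to separate cultures, so p-values measure the spread between these samples, which may be technical. The labels name each day as its own batch, so day and batch cannot be told apart, and levels were scaled within a day only.

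DNA replication is prepared in G1, when the origin recognition complex (Orc proteins), Cdc6 and Cdt1 load the Mcm2 to Mcm7 ring onto DNA, and geminin (Gmnn) later blocks Cdt1 so that no origin is loaded again. In S phase the kinase Cdc7 with its activator Dbf4, together with Cdc45 and the GINS proteins, turns the ring into a moving helicase, behind which polymerases, the sliding clamp Pcna and its loader (Rfc proteins) copy both strands. Many of these genes are transcribed by E2F factors as cells enter the cycle, so their RNA is commonly read as a sign of proliferation.

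The depth was between 10377151 and 14698525 counts on genes per library (median 12330911). Values are given in CPM, the counts of a gene scaled to a common library depth with TMM factors. Yap1, which encodes Yap, was at 140.3, 134 and 136 CPM in Ctrl+FGF2 and 68.6, 69.6 and 73.7 CPM in the knockdown cells at d2.5, and Wwtr1, which encodes Taz, was at 236, 233 and 238 CPM in Ctrl+FGF2 and 149, 138 and 143 CPM in Y/T dKD+FGF2. At d5 the respective values were 149.6, 139 and 143 CPM in Ctrl+FGF2 and 69.9, 63 and 65.8 CPM in Y/T dKD+FGF2 for Yap1 and 201, 206 and 203 CPM in Ctrl+FGF2 and 115, 119.9 and 116 CPM in Y/T dKD+FGF2 for Wwtr1, so knockdown libraries lay below Ctrl+FGF2 on both days. At d2.5 FGF2 alone had raised Wwtr1 (log2 fold change 0.65) and lowered Yap1 (-0.23). Against Ctrl+vehicle at d2.5, the knockdown cells thus had Yap1 called lower (-1.18) but Wwtr1 not called (-0.06). At d5 both were called lower against Ctrl+vehicle (-1.05 and -0.89). The knockdown was thus partial at the RNA level.

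Of 9 neural crest and mesenchyme markers, Prrx1, Twist1, Snai2, Sox9 and Tfap2a were present throughout, whereas Sox10 had 0 counts in all 18 libraries. FGF2 lowered 4 of the 8 tested at d2.5, most of all Msx2 (-2.66) and Sox9 (-1.04, log2 fold changes), and raised 0. At d5 it raised 4, led by Sox9 (0.91), and lowered 3, led by Msx2 (-1.05). The knockdown raised 2 and lowered 2 at d2.5 (-0.26 to 0.34 over the 8) and raised 3 and lowered 4 at d5 (-0.77 to 0.54). Of all genes tested, FGF2 raised 33.5% and lowered 34.1% at d2.5, and raised 23.5% and lowered 23.7% at d5. For the knockdown these shares were 10.8% and 13.6% at d2.5, and 15.6% and 16.1% at d5. The summed level of the 9 markers at d2.5 was 2026 to 2054 CPM in Ctrl+vehicle, 1611 to 1649 CPM in Ctrl+FGF2 and 1701 to 1791 CPM in Y/T dKD+FGF2. At d5 the respective sums were 2158 to 2189, 2345 to 2383 and 2091 to 2125 CPM. Markers of other cell types were low. Itgam (blood), Cdh5 (endothelium) and Pou5f1 (pluripotent cells) had 0 counts in all 18 libraries, and Ptprc (blood) and Kdr (endothelium) were near 0. The 5 blood markers summed to at most 4.34 CPM in a library, the 4 endothelial markers to 4.17, the 4 epithelial markers to 6.04 and both pluripotency markers to 0.845. Some of them moved with the groups. The endothelial marker Pecam1 was at 4.14, 4.17 and 2.98 CPM in Ctrl+vehicle and 1.58, 1.63 and 0.709 CPM in Ctrl+FGF2 at d2.5, and at 0.567, 0.544 and 0.504 and 1.82, 1.31 and 1.19 CPM at d5 (log2 fold changes -1.55 and 1.40, both called). Of the epithelial markers, Krt14 was at 4.51, 5.42 and 4.23 CPM in Ctrl+vehicle and 0.150, 0.310 and 0 CPM in Ctrl+FGF2 at d2.5 (-4.90), while Epcam rose from 0.295, 0.278 and 0.249 to 0.976, 1.63 and 0.993 CPM (2.08). The blood marker Cd68 was at 1.3, 2.46 and 1.95 CPM in Ctrl+FGF2 and 4.34, 3.66 and 4.2 CPM in Y/T dKD+FGF2 at d5 (1.07). The part of all these markers in the results was not tested. Replicate 2 had the lowest summed level of the 47 genes in both Ctrl groups at d5, with 829 CPM against 1024 and 930 CPM in replicates 1 and 3 of Ctrl+FGF2, and 1149 CPM against 1381 and 1261 CPM in Ctrl+vehicle. The Ctrl+FGF2 d5 replicate 2 library was the lowest of all 18. Among the genes given per library, calls that were lost without it are named. Some d5 fold changes are given without it too, and the others only with it.

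At d2.5, FGF2 raised nearly the whole replication machinery. Ctrl+FGF2 was compared with Ctrl+vehicle by edgeR's quasi-likelihood test over 13677 genes, with calls at a Benjamini-Hochberg adjusted p under 0.05. Of the 47 genes, 46 were called higher and 0 lower, where 33.5% of all genes tested were called higher and 34.1% lower. The median log2 fold change of the 47 genes was 1.09, beside 0.00 over all genes tested, and 27 of them rose at least 2-fold. For these 46 genes every Ctrl+FGF2 library lay above every Ctrl+vehicle library. The share of all genes tested that did so was not counted, so this separation is not read as particular to them. Together the 47 genes took 1867 ± 112 CPM in Ctrl+vehicle and 3793 ± 28.0 CPM in Ctrl+FGF2 (mean ± SD, n = 3). In bulk RNA, more cells in S phase and more RNA of these genes per cell cannot be told apart.

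**Figure D1:**
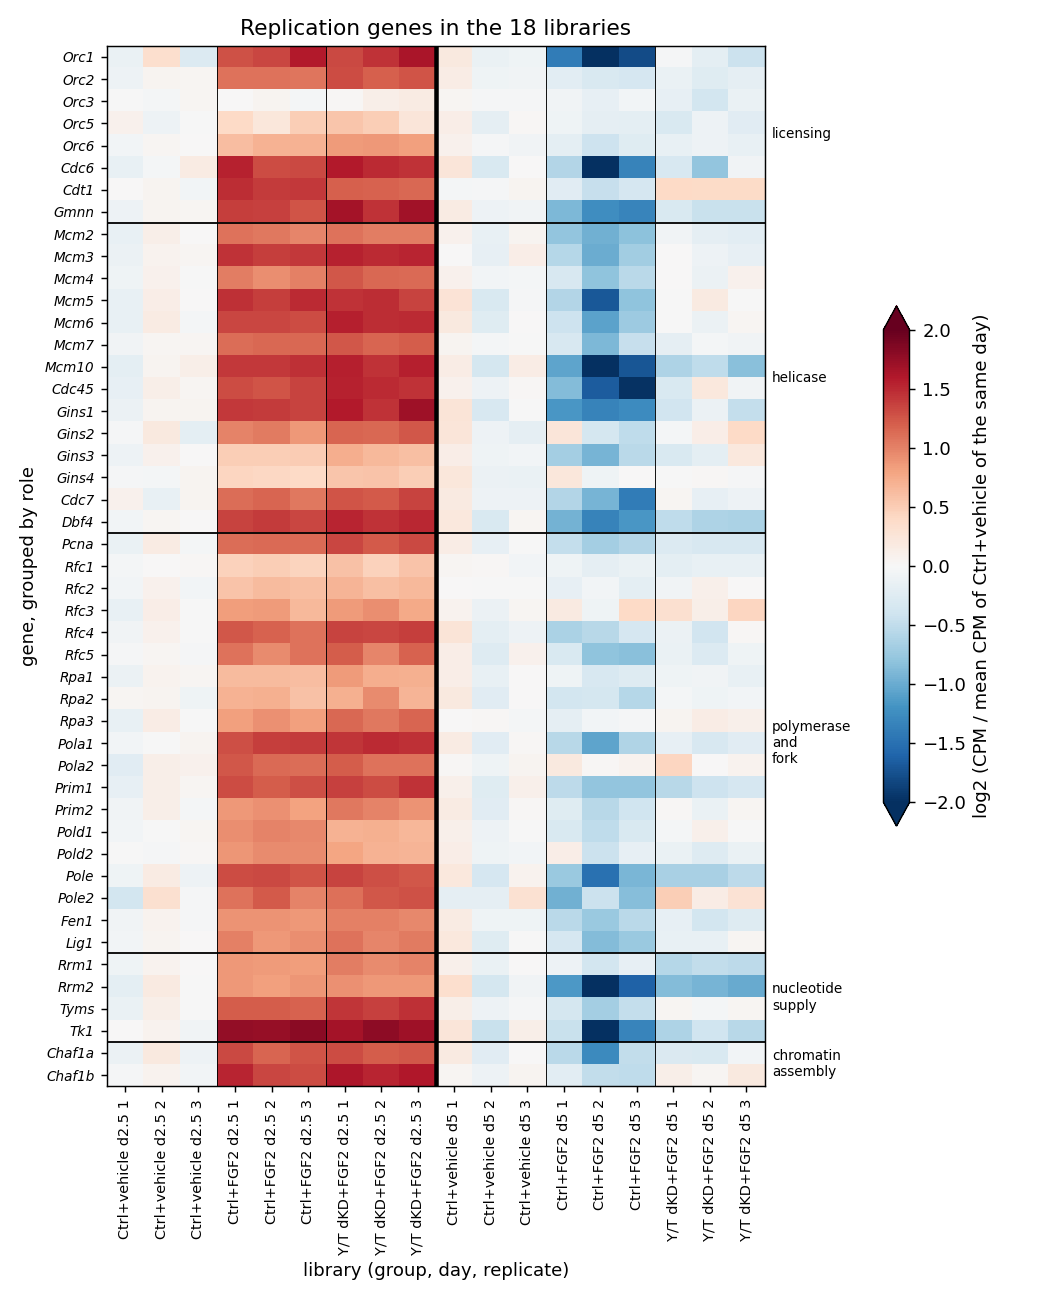
Levels of the 47 replication genes (rows, grouped by role) in the 18 libraries (columns), as the log2 ratio of the CPM in a library to the mean CPM of Ctrl+vehicle of the same day. At d2.5 the 3 Ctrl+FGF2 and 3 Y/T dKD+FGF2 columns are red for all genes but Orc3, whereas at d5 the Ctrl+FGF2 columns are mostly blue, most deeply in replicate 2, and the Y/T dKD+FGF2 columns are pale.

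The only gene without a call was Orc3, a subunit of the origin recognition complex. It was at 45.6, 44.9 and 47.5 CPM in Ctrl+vehicle and 46.3, 48 and 45 CPM in Ctrl+FGF2, and the groups overlapped (log2 fold change 0.01 ± 0.05, adjusted p = 0.841). The other subunits among the 47 genes were called higher, by unlike amounts. Orc1, the subunit whose amount is known to vary with the cell cycle, rose by 1.39 ± 0.16 (log2 ± SE), Orc2 by 1.08 ± 0.05, Orc6 by 0.67 ± 0.05 and Orc5 by 0.38 ± 0.08. Orc4, a further subunit outside the 47 genes, had no call at -0.00 ± 0.05. Reads of Orc5 are uncertain because an exon of Gm15421 overlaps it on the same strand. For Orc1 the libraries were at 2.81, 3.89 and 2.57 CPM in Ctrl+vehicle against 7.43, 7.83 and 9.22 CPM in Ctrl+FGF2. Cdc6, the loader that joins the origin complex, was at 6.87, 7.36 and 8.53 CPM in Ctrl+vehicle and 22.1, 18.8 and 18.9 CPM in Ctrl+FGF2 (log2 fold change 1.40 ± 0.10, adjusted p = 2.00e-13). The loading factor Cdt1 and its inhibitor Gmnn rose alike. Cdt1 went from 24.7, 25.7 and 23.8 to 68.5, 65.3 and 65.8 CPM (log2 fold change 1.42 ± 0.05, adjusted p = 2.06e-20), and Gmnn from 13.3, 14.9 and 14.7 to 37.4, 36.8 and 34 CPM (log2 fold change 1.33 ± 0.08, adjusted p = 1.39e-15). Licensing genes had a median log2 fold change of 1.21 with 7 of 8 called.

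All 14 helicase genes were called higher (median log2 fold change 1.22). Among the subunits of the Mcm ring, Mcm5 rose most, from 52.4, 63.7 and 58.5 CPM in Ctrl+vehicle to 161, 152 and 164 CPM in Ctrl+FGF2 (log2 fold change 1.45 ± 0.05, adjusted p = 2.36e-21). Mcm3 was at 51.5, 58.9 and 57.8 CPM in Ctrl+vehicle and 153, 147 and 149 CPM in Ctrl+FGF2. For Mcm6, the values were 101, 126 and 108 CPM without FGF2 and 283, 283 and 276 CPM with it. All 6 subunits moved in 1 direction, by log2 fold changes between 0.99 (Mcm4) and 1.45 (Mcm5). Mcm2 was at 64.9, 78.1 and 72.3 CPM in Ctrl+vehicle and 153, 149 and 141 CPM in Ctrl+FGF2. Mcm4 had 77.5, 86.7 and 81.8 CPM in Ctrl+vehicle and 166, 157 and 164 CPM in Ctrl+FGF2. Mcm7, whose gene hosts Mir25 and Mir93 on the same strand, had 73.3, 79.6 and 79.2 CPM in Ctrl+vehicle and 168, 171 and 172 CPM in Ctrl+FGF2. None of these groups overlapped.

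The factors that fire the loaded ring rose with it. Mcm10, which helps to activate the helicase, was at 11.7, 13.9 and 14.6 CPM in Ctrl+vehicle and 35.8, 35.7 and 36.7 CPM in Ctrl+FGF2 (log2 fold change 1.43 ± 0.08, adjusted p = 7.45e-17). Cdc45, a helicase subunit, was at 12, 14.6 and 13.8 CPM in Ctrl+vehicle and 33.2, 32.3 and 34.3 CPM in Ctrl+FGF2 (log2 fold change 1.30 ± 0.08, adjusted p = 8.05e-16). The kinase gene Cdc7 rose by 1.12 ± 0.09 on the log2 scale, from 9.16, 7.85 and 8.95 to 18.8, 19.4 and 18 CPM. Its activator Dbf4 rose by 1.36 ± 0.04, from 45.6, 48.7 and 47.9 to 121, 125 and 119 CPM. The GINS subunits, which sit in 1 complex, were all called higher. The log2 fold change was 1.39 ± 0.11 for Gins1, 0.96 ± 0.09 for Gins2, 0.49 ± 0.11 for Gins3 and 0.42 ± 0.06 for Gins4. In CPM, Gins2 was at 12.3, 14.2 and 10.9 in Ctrl+vehicle and 24.8, 25.7 and 22.8 in Ctrl+FGF2.

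All 19 polymerase and fork genes were called higher (median log2 fold change 0.94), and 8 of them rose at least 2-fold. The largest rises in this role were those of Pola1, the catalytic subunit of the polymerase that starts new strands (1.36 ± 0.04), Pole, the catalytic subunit of the leading strand polymerase (1.29 ± 0.06), and the primase gene Prim1 (1.27 ± 0.06). Pola1 was at 48.5, 50.2 and 52.1 CPM in Ctrl+vehicle and 123, 131 and 133 CPM in Ctrl+FGF2, and Pole at 30.4, 36.1 and 29.8 CPM in Ctrl+vehicle and 79.5, 79.8 and 77 CPM in Ctrl+FGF2. Pold1, the catalytic subunit of the lagging strand polymerase, went from 27.6, 28.5 and 29.4 to 54.4, 56.9 and 55.7 CPM (log2 fold change 0.97 ± 0.05, adjusted p = 3.88e-16). Pcna, the sliding clamp, went from 71.6, 88.4 and 76.5 to 172, 173 and 172 CPM (log2 fold change 1.12 ± 0.05, adjusted p = 7.54e-19). Reads of Pcna can be shared with the copies Pcna-ps1 and Pcna-ps2, so its level is less certain. The genes of this role that rose least were Rfc1 (0.47 ± 0.04) and Rfc2 (0.60 ± 0.05), both subunits of the clamp loader, and Rpa1 (0.63 ± 0.04), which coats single-stranded DNA and overlaps an exon of Gm47300. Its partner Rpa2 was at 13.2, 13.4 and 12.2 CPM in Ctrl+vehicle and 21, 21.2 and 19.4 CPM in Ctrl+FGF2. The lagging strand is finished by the flap nuclease Fen1 and the ligase Lig1. Fen1 was at 18.9, 20.8 and 19.6 CPM in Ctrl+vehicle and 36.8, 36.8 and 35.9 CPM in Ctrl+FGF2, and Lig1 at 50.5, 54.6 and 52.8 CPM in Ctrl+vehicle and 106, 96.5 and 101 CPM in Ctrl+FGF2.

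Tk1, the thymidine kinase of the salvage pathway, had the largest rise of the 47 genes. It was at 21.7, 22.6 and 20.6 CPM in Ctrl+vehicle and 73.4, 72.7 and 75.4 CPM in Ctrl+FGF2 (log2 fold change 1.77 ± 0.06, adjusted p = 1.90e-22). Tyms, which makes thymidylate and has a copy named Tyms-ps, was at 24.5, 29.2 and 26.8 CPM in Ctrl+vehicle and 62.1, 61.8 and 61.1 CPM in Ctrl+FGF2 (log2 fold change 1.20 ± 0.06, adjusted p = 8.88e-18). The genes of ribonucleotide reductase, which makes deoxynucleotides, rose by nearly equal amounts at d2.5. Its large subunit Rrm1 went from 139, 157 and 149.5 to 269.8, 267 and 266 CPM (log2 fold change 0.85 ± 0.04, adjusted p = 1.12e-18), and its small subunit Rrm2 from 78.7, 102 and 90.4 to 164, 160.1 and 167 CPM (log2 fold change 0.86 ± 0.05, adjusted p = 4.85e-15). Chaf1a and Chaf1b encode subunits of the factor that places histones on new DNA. Chaf1a was at 29.7, 36.8 and 29.8 CPM in Ctrl+vehicle and 80.3, 72.2 and 76.8 CPM in Ctrl+FGF2, and Chaf1b at 13.2, 14.2 and 13 CPM in Ctrl+vehicle and 38.5, 34 and 33.2 CPM in Ctrl+FGF2, with log2 fold changes of 1.25 ± 0.06 and 1.38 ± 0.08.

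Under the partial knockdown of Yap and Taz, in which Wwtr1 RNA stayed near its Ctrl+vehicle level, this rise as a whole was not reduced at d2.5. The 47 genes together took 4041 ± 88.3 CPM in Y/T dKD+FGF2, beside 3793 ± 28.0 CPM in Ctrl+FGF2 (mean ± SD, n = 3). Whether a fuller loss of Yap and Taz would lower the rise was not tested. Against Ctrl+FGF2, 16 of the 47 genes were called higher in Y/T dKD+FGF2 and 3 lower, where 10.8% of all genes tested were called higher and 13.6% lower, and no gene moved 2-fold. Log2 fold changes lay between -0.28 and 0.27 with a median of 0.11. The largest rises were those of Rpa3, a subunit of the single-strand binding complex (0.27 ± 0.07), Gmnn (0.27 ± 0.07) and Gins2 (0.22 ± 0.08). Without the Y/T dKD+FGF2 d2.5 replicate 1 library the calls numbered 8 higher and 3 lower. Against Ctrl+vehicle, 46 of the 47 genes were called higher in Y/T dKD+FGF2 and 0 lower (34.1% and 35.7% of all genes tested), with a median log2 fold change of 1.18. In that comparison the largest rises were those of Tk1 (1.72 ± 0.06), Gmnn (1.60 ± 0.08) and Gins1 (1.58 ± 0.10), and the gene without a call was again Orc3 (0.11 ± 0.05). The comparisons with Ctrl+FGF2 and with Ctrl+vehicle share the Y/T dKD+FGF2 libraries.

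Cdt1, Pold1 and Pold2 were the 3 genes that the knockdown lowered at d2.5. Cdt1 was at 68.5, 65.3 and 65.8 CPM in Ctrl+FGF2 and 56.5, 56.3 and 54.8 CPM in Y/T dKD+FGF2 (log2 fold change -0.25 ± 0.05, adjusted p = 0.000254). Pold1 was at 54.4, 56.9 and 55.7 CPM in Ctrl+FGF2 and 46.3, 46.4 and 45.2 CPM in Y/T dKD+FGF2 (log2 fold change -0.28 ± 0.05, adjusted p = 0.000174), and Pold2, the accessory subunit of the same polymerase, at 68.6, 71.3 and 71.2 CPM in Ctrl+FGF2 and 64.4, 60.0 and 59.6 CPM in Y/T dKD+FGF2 (log2 fold change -0.20 ± 0.05, adjusted p = 0.00240). The groups did not overlap for any of the 3, and each value stayed above the Ctrl+vehicle libraries. Gmnn, the inhibitor of Cdt1, moved the other way, from 37.4, 36.8 and 34 to 45.3, 38.7 and 45.9 CPM (adjusted p = 0.00354).

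At d5 FGF2 had the opposite direction. Ctrl+FGF2 was compared with Ctrl+vehicle over 13304 genes, and 38 of the 47 genes were called lower and 0 higher, where 23.7% of all genes tested were called lower and 23.5% higher. The median log2 fold change was -0.57, and 10 genes fell at least 2-fold. This 2-fold count was made only with all libraries of that day. The sum of the 47 genes was 1264 ± 116 CPM in Ctrl+vehicle and 927 ± 97.3 CPM in Ctrl+FGF2 (mean ± SD, n = 3). Leaving out the Ctrl+FGF2 d5 replicate 2 library gave 35 genes lower and a median of -0.51. The 9 genes without a call were Orc3, Orc5, Gins2, Gins4, Rfc2, Rfc3, Rpa3, Pola2 and Pold2. Of these, Rfc3, a clamp loader subunit, had a log2 fold change of 0.18 ± 0.14, and Pola2, which holds primase to its polymerase, of 0.09 ± 0.11.

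**Figure D2:**
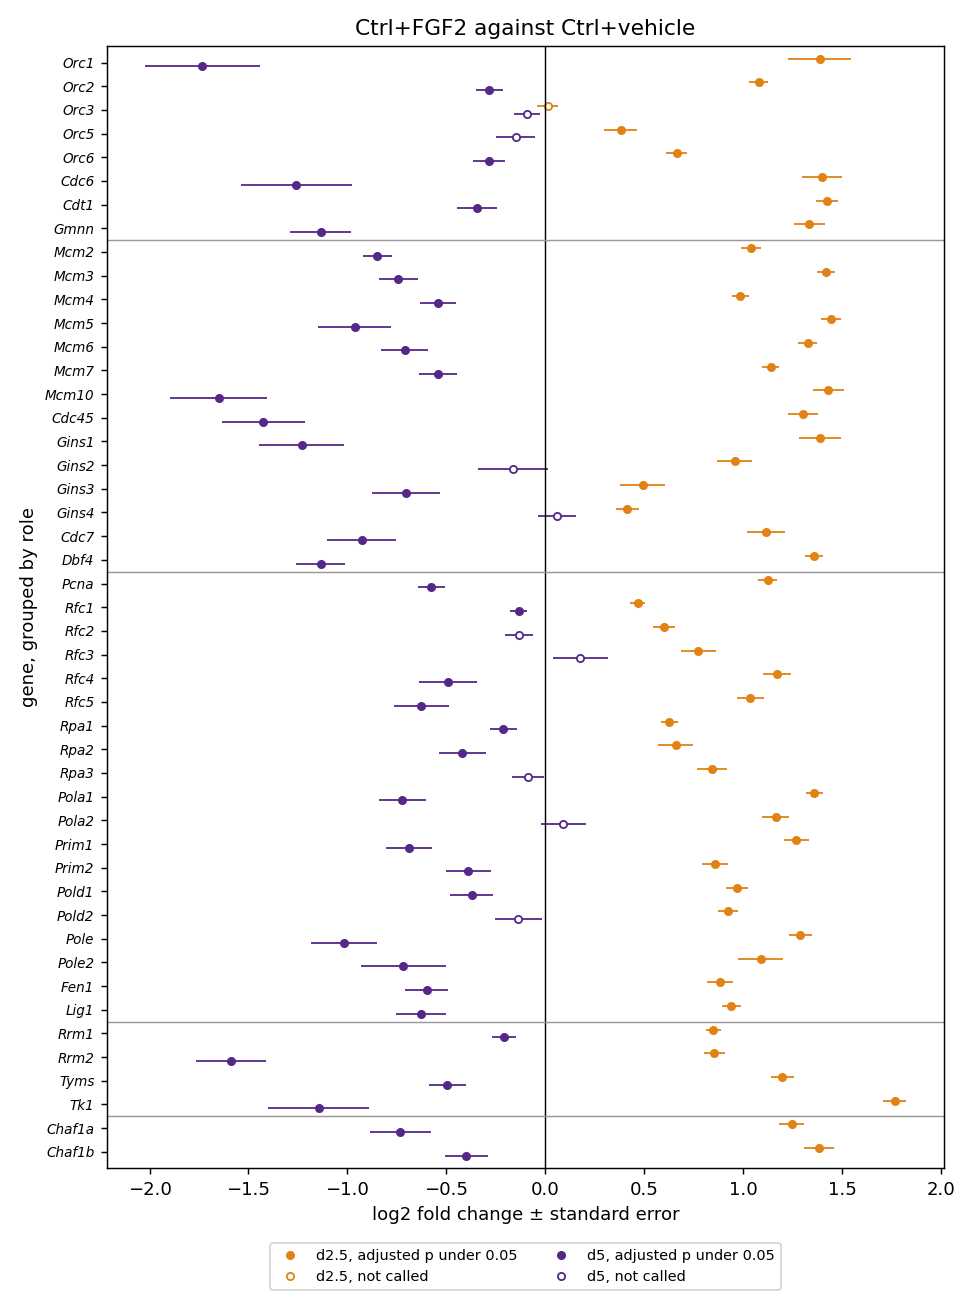
Log2 fold change of Ctrl+FGF2 against Ctrl+vehicle (x axis, ± SE) for each replication gene (y axis, grouped by role) at d2.5 (orange) and d5 (purple), with filled points for adjusted p under 0.05. The 46 orange filled points lie right of 0 and the 38 purple filled points left of it.

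In the licensing role 6 of 8 genes fell at d5, with log2 fold changes that ran from -1.73 (Orc1) to -0.09 (Orc3, not called) around a median of -0.31. Orc1 had the largest fall of all 47 genes, from 2.36, 1.86 and 1.93 CPM in Ctrl+vehicle to 0.779, 0.461 and 0.594 CPM in Ctrl+FGF2 (log2 fold change -1.73 ± 0.29, adjusted p = 8.60e-05). Its counts were low, at 25, 24 and 23 against 9, 6 and 7 reads, so the size of this fall is imprecise. Cdc6 was at 7.84, 5.36 and 6.63 CPM in Ctrl+vehicle and 4.42, 1.31 and 2.63 CPM in Ctrl+FGF2 (log2 fold change -1.26 ± 0.28, adjusted p = 0.00123), and without replicate 2 of Ctrl+FGF2 its log2 fold change was -0.90. Gmnn went from 8.31, 6.91 and 7.05 to 3.98, 3.15 and 2.97 CPM (log2 fold change -1.14 ± 0.15, adjusted p = 8.90e-06). Cdt1 fell far less than its inhibitor, from 11.6, 11.7 and 12.3 to 10.1, 8.6 and 9.42 CPM (log2 fold change -0.35 ± 0.10, adjusted p = 0.00879). The core subunits Orc2 (-0.28 ± 0.07) and Orc6 (-0.28 ± 0.08) fell little.

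Of the helicase genes 12 of 14 fell (median log2 fold change -0.80). Mcm10 went from 7.37, 5.2 and 7.38 CPM in Ctrl+vehicle to 3.2, 1.15 and 2.04 CPM in Ctrl+FGF2 (log2 fold change -1.65 ± 0.25, adjusted p = 2.55e-05). Cdc45 went from 8.5, 7.46 and 8.14 to 4.42, 2.54 and 2.04 CPM (log2 fold change -1.43 ± 0.21, adjusted p = 2.36e-05). Without replicate 2 of Ctrl+FGF2 the log2 fold changes were -1.33 for Mcm10 and -1.31 for Cdc45. In both genes all Ctrl+FGF2 libraries lay under all Ctrl+vehicle libraries, although the Ctrl+FGF2 values themselves spread more than 1.5-fold. Within the ring, Mcm5 had the largest fall, from 28.1, 18.8 and 22.9 to 15.5, 7.14 and 13.2 CPM (log2 fold change -0.96 ± 0.18, adjusted p = 0.000327). Mcm2 went from 48.7, 41.4 and 47.4 to 26.7, 23.6 and 26.1 CPM (-0.85 ± 0.07). Mcm3 was at 33.8, 29.7 and 36.8 CPM in Ctrl+vehicle and 22.5, 16.9 and 20.7 CPM in Ctrl+FGF2 (-0.74 ± 0.10). The falls of the remaining ring subunits were of similar size. Mcm6 was at 59.2, 44 and 52.3 CPM in Ctrl+vehicle and 39, 24.7 and 31.4 CPM in Ctrl+FGF2 (-0.71 ± 0.12). Mcm4 was at 51.8, 47.1 and 47.2 CPM in Ctrl+vehicle and 39.1, 27.7 and 33.6 CPM in Ctrl+FGF2 (-0.54 ± 0.09), and Mcm7 at 45.9, 43.1 and 44.1 CPM in Ctrl+vehicle and 35.6, 23.9 and 32.3 CPM in Ctrl+FGF2 (-0.54 ± 0.10). The firing kinase fell in both its parts. Cdc7 was at 7.65, 6.29 and 6.29 CPM in Ctrl+vehicle and 4.5, 3.53 and 2.55 CPM in Ctrl+FGF2 (-0.93 ± 0.18), and Dbf4 at 29.2, 20.4 and 25.7 CPM in Ctrl+vehicle and 13, 9.99 and 11.2 CPM in Ctrl+FGF2 (-1.13 ± 0.12). Gins1 fell by -1.23 ± 0.21 and Gins3 by -0.70 ± 0.17, while Gins2, at 10.3, 8.08 and 7.72 CPM in Ctrl+vehicle and 10.3, 6.84 and 6.11 CPM in Ctrl+FGF2, overlapped between the groups (-0.16 ± 0.18).

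Polymerase and fork genes fell less, with 14 of 19 called and a median log2 fold change of -0.42. Pole had the largest fall in this role and the only one of at least 2-fold, from 15.1, 10.3 and 13.6 to 7.79, 4.61 and 6.88 CPM (log2 fold change -1.02 ± 0.17, adjusted p = 6.86e-05). Without replicate 2 of Ctrl+FGF2 the fall of Pole was under 2-fold (log2 fold change -0.82). Pola1 was at 28.7, 21.7 and 26 CPM in Ctrl+vehicle and 17.4, 12.2 and 16.7 CPM in Ctrl+FGF2 (-0.72 ± 0.12). Pcna was at 89.6, 71.8 and 80.7 CPM in Ctrl+vehicle and 58.1, 50.2 and 54 CPM in Ctrl+FGF2 (-0.57 ± 0.07). Each of these genes had its lowest value in replicate 2 of Ctrl+FGF2. Pold1 was at 12.4, 10.8 and 11.6 CPM in Ctrl+vehicle and 9.35, 8.14 and 9.34 CPM in Ctrl+FGF2 (-0.37 ± 0.11). Lig1 was at 24.8, 18.2 and 21.2 CPM in Ctrl+vehicle and 16.9, 11.8 and 12.8 CPM in Ctrl+FGF2 (-0.63 ± 0.13), and Fen1 at 17, 14.2 and 14.3 CPM in Ctrl+vehicle and 10.5, 9.06 and 10.4 CPM in Ctrl+FGF2 (-0.60 ± 0.11). Rpa2 was at 13.2, 9.94 and 11.7 CPM in Ctrl+vehicle and 9.01, 9.06 and 7.81 CPM in Ctrl+FGF2 (-0.42 ± 0.12). In all of them the 2 groups did not overlap.

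The 4 nucleotide supply genes fell at d5, with a median log2 fold change of -0.82, but the subunits of ribonucleotide reductase parted. Rrm2 went from 66, 41.2 and 50.1 CPM in Ctrl+vehicle to 23.7, 11.6 and 17.1 CPM in Ctrl+FGF2 (log2 fold change -1.59 ± 0.18, adjusted p = 9.50e-07). Without replicate 2 of Ctrl+FGF2 its log2 fold change was -1.35. Rrm1 was at 181, 154 and 169.9 CPM in Ctrl+vehicle and 157, 129.9 and 149.8 CPM in Ctrl+FGF2 (log2 fold change -0.21 ± 0.06, adjusted p = 0.0107), a call that was lost without replicate 2 of Ctrl+FGF2 (log2 fold change -0.13, adjusted p = 0.0625, edgeR). Tk1 went from 13.3, 8.23 and 12.2 to 8.23, 2.61 and 4.5 CPM (log2 fold change -1.15 ± 0.26, adjusted p = 0.00125). Without replicate 2 of Ctrl+FGF2 its log2 fold change was -0.81. Its Ctrl+FGF2 values differed more than 3-fold among themselves, and the highest of them lay only just under the lowest Ctrl+vehicle value (both 8.23 CPM after rounding). Tyms was at 22.5, 19.3 and 20.5 CPM in Ctrl+vehicle and 16.3, 12.9 and 14.9 CPM in Ctrl+FGF2 (-0.50 ± 0.09). Of the chromatin assembly genes, Chaf1a was at 21.8, 16.5 and 19.5 CPM in Ctrl+vehicle and 13.2, 7.99 and 13.7 CPM in Ctrl+FGF2 (-0.73 ± 0.15), and Chaf1b at 12.4, 11.3 and 12.6 CPM in Ctrl+vehicle and 10.4, 8.6 and 8.49 CPM in Ctrl+FGF2 (-0.40 ± 0.11).

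Under FGF2 at d5 the knockdown raised most of these genes. Of the 47, 29 were called higher in Y/T dKD+FGF2 than in Ctrl+FGF2 and 1 lower, where 15.6% of all genes tested were called higher and 16.1% lower, and the median log2 fold change was 0.47. Leaving out the Ctrl+FGF2 d5 replicate 2 library gave 22 higher and 1 lower with a median of 0.33, and leaving out replicate 1 of that group gave 33 higher and 1 lower with a median of 0.59. The FGF2 and knockdown comparisons of a day share the Ctrl+FGF2 libraries, so a low library there moves both in opposite directions. By role, 12 of 14 helicase genes were called higher, 9 of 19 polymerase and fork genes, 4 of 8 licensing genes, 2 of 4 nucleotide supply genes and both chromatin assembly genes.

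**Figure D3:**
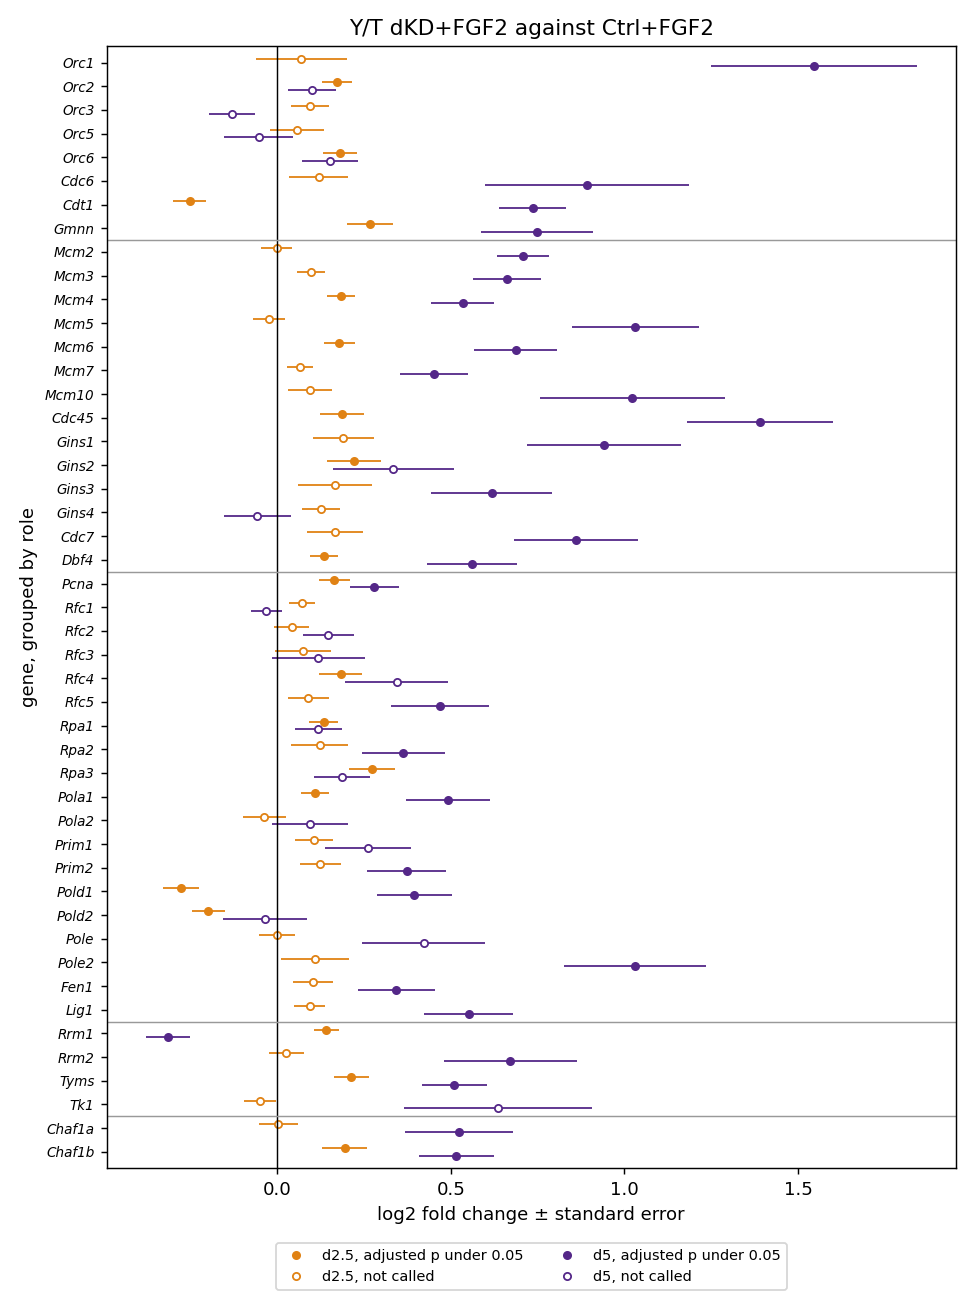
Log2 fold change of Y/T dKD+FGF2 against Ctrl+FGF2 (x axis, ± SE) for each replication gene (y axis, grouped by role) at d2.5 (orange) and d5 (purple), with filled points for adjusted p under 0.05. Orange points lie between -0.28 and 0.27, and the 29 purple filled points right of 0 reach 1.55 (Orc1), with Rrm1 as the purple filled point left of 0.

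Orc1 rose most, from 0.779, 0.461 and 0.594 CPM in Ctrl+FGF2 to 2.01, 1.79 and 1.53 CPM in Y/T dKD+FGF2 (log2 fold change 1.55 ± 0.30, adjusted p = 0.000607), with 25, 23 and 16 reads behind the latter. Cdc45 was at 4.42, 2.54 and 2.04 CPM in Ctrl+FGF2 and 6.51, 9.26 and 7.64 CPM in Y/T dKD+FGF2 (log2 fold change 1.39 ± 0.21, adjusted p = 5.89e-05). Mcm5 was at 15.5, 7.14 and 13.2 CPM in Ctrl+FGF2 and 23.1, 26.2 and 23 CPM in Y/T dKD+FGF2 (log2 fold change 1.03 ± 0.18, adjusted p = 0.000284), and its log2 fold change was 0.75 without the low library. Pole2, a subunit of the leading strand polymerase that overlaps Gm49384, had almost the same rise as Mcm5 (1.03 ± 0.21). Every knockdown library lay above every Ctrl+FGF2 library for Orc1, Cdc45 and Mcm5. The other ring subunits were called higher too, with Mcm2 at 43.9, 40.6 and 39.8 CPM (0.71 ± 0.07). Mcm6 reached 51.5, 47.6 and 53.2 CPM (0.69 ± 0.12), and Mcm3 33.6, 31.1 and 29.9 CPM (0.66 ± 0.10). Mcm4 reached 48.8, 45 and 51.5 CPM (0.53 ± 0.09) and Mcm7 39.3, 43.2 and 42.4 CPM (0.45 ± 0.10). Mcm10 was at 4.34, 4.67 and 3.72 CPM in the knockdown (1.02 ± 0.27, and 0.71 without the low library). Cdc7 was at 6.91, 5.99 and 6.3 CPM (0.86 ± 0.18) and Dbf4 at 17.7, 16.3 and 16.1 CPM (0.56 ± 0.13). Gins2 was at 8.44, 9.5 and 11.5 CPM and was not called (0.33 ± 0.17).

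Among licensing genes, Cdt1 was at 15.8, 15.6 and 15.5 CPM in Y/T dKD+FGF2 (log2 fold change 0.74 ± 0.10, adjusted p = 1.17e-05) and Gmnn at 6.03, 5.45 and 5.44 CPM (log2 fold change 0.75 ± 0.16, adjusted p = 0.00154). Cdc6 was at 5.3, 3.81 and 6.3 CPM, and its call (log2 fold change 0.89 ± 0.29, adjusted p = 0.0270) was lost without the low library, at 0.53. At the fork, Pola1 was at 22.7, 20.4 and 21.7 CPM (0.49 ± 0.12) and Lig1 at 19.4, 19.4 and 22 CPM (0.55 ± 0.13). Pold1, which the knockdown had lowered at d2.5, was higher at d5, at 11.3, 12.5 and 11.5 CPM (0.39 ± 0.11). Pcna was at 67.1, 64.8 and 64.8 CPM (0.28 ± 0.07) and Rpa2 at 11.3, 10.9 and 11.2 CPM (0.36 ± 0.12). Pole was at 8.28, 8.33 and 9.07 CPM and was not called (0.42 ± 0.18, adjusted p = 0.0821). Fen1 was at 13.5, 11.8 and 12.7 CPM (0.34 ± 0.11), and its call was lost without the low library, at 0.27. Chaf1b was at 13.1, 12.5 and 13.8 CPM (0.52 ± 0.11), and Chaf1a at 15.8, 15.6 and 18.6 CPM (0.52 ± 0.16), the latter with a call that was lost without the low library, at 0.30.

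Nucleotide supply genes did not move together under the knockdown at d5. Rrm1 was the only one of the 47 genes called lower, at 157, 129.9 and 149.8 CPM in Ctrl+FGF2 and 114, 119 and 117 CPM in Y/T dKD+FGF2 (log2 fold change -0.32 ± 0.06, adjusted p = 0.00100). Rrm2 rose, from 23.7, 11.6 and 17.1 to 28.9, 27.6 and 26.1 CPM (log2 fold change 0.67 ± 0.19, adjusted p = 0.0121), a call that was lost without the low library (log2 fold change 0.44, adjusted p = 0.0558, edgeR). Tk1 was at 7.31, 8.48 and 7.64 CPM and was not called (log2 fold change 0.64 ± 0.27, adjusted p = 0.0847). Tyms was at 21.2, 20.1 and 21.4 CPM (0.51 ± 0.09).

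Against Ctrl+vehicle, the knockdown cells with FGF2 at d5 had 1 of the 47 genes called higher and 11 lower, where 20.7% of all genes tested were called higher and 21.1% lower. The count called lower thus lay near the share over all genes tested and is not read as particular to these genes. The median log2 fold change of the 47 genes was -0.13, and no gene was past 2-fold. The gene called higher was Cdt1, at 11.6, 11.7 and 12.3 CPM in Ctrl+vehicle and 15.8, 15.6 and 15.5 CPM in Y/T dKD+FGF2 (log2 fold change 0.39 ± 0.09, adjusted p = 0.00241). The largest falls were those of Rrm2 (-0.92 ± 0.16, adjusted p = 0.000194), Mcm10 (-0.63 ± 0.21, adjusted p = 0.0246) and Pole (-0.60 ± 0.16, adjusted p = 0.00546). Dbf4 (-0.57 ± 0.12), Rrm1 (-0.52 ± 0.06), Prim1 (-0.43 ± 0.11), Gmnn (-0.39 ± 0.14), Pcna (-0.30 ± 0.07), Orc3 (-0.22 ± 0.07), Orc2 (-0.18 ± 0.07) and Rfc1 (-0.17 ± 0.04) were the others called lower. The 6 ring subunits were not called, with log2 fold changes between -0.14 ± 0.07 (Mcm2) and 0.07 ± 0.16 (Mcm5).

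The FGF2 effect differed between the days for nearly all of the genes, by a test of the difference itself over all 18 libraries and 14198 genes. The difference (the log2 fold change at d5 minus that at d2.5) was called lower for 46 of the 47 genes and higher for 0, where 29.1% of all genes tested were called lower and 31.8% higher. Its median was -1.71, and for 38 genes it was at least 2-fold. Orc1 (-3.15 ± 0.34, adjusted p = 3.78e-09), Mcm10 (-3.11 ± 0.23, adjusted p = 1.16e-12) and Tk1 (-2.94 ± 0.23, adjusted p = 2.77e-12) had the largest differences, and Orc3 (-0.13 ± 0.08, adjusted p = 0.181) was the gene without a call. The knockdown effect differed for fewer, with 21 genes called higher at d5 and 1 lower, where 11.6% of all genes tested were called higher and 9.35% lower, and the median difference was 0.38. The largest were those of Orc1 (1.48 ± 0.35, adjusted p = 0.00240), Cdc45 (1.20 ± 0.20, adjusted p = 5.99e-05) and Mcm5 (1.06 ± 0.17, adjusted p = 4.74e-05), and the gene called lower was Rrm1 (-0.46 ± 0.08, adjusted p = 5.49e-05). Without the Ctrl+FGF2 d5 replicate 2 library these counts were 11 higher and 2 lower with a median of 0.23. Cdt1 (0.99 ± 0.10, adjusted p = 1.26e-08) and Pold1 (0.67 ± 0.11, adjusted p = 3.16e-05) went from lower under the knockdown at d2.5 to higher at d5.

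The balance between partner genes was also read within each library, where scaling cancels. The ratio of Cdt1 to Gmnn counts was 1.74 ± 0.12 in Ctrl+vehicle and 1.85 ± 0.08 in Ctrl+FGF2 at d2.5 (mean ± SD, n = 3), and 1.30 ± 0.14 in Y/T dKD+FGF2. At d5 it was 1.40, 1.70 and 1.75 in the Ctrl+vehicle libraries, against 2.54, 2.73 and 3.17 with FGF2 and 2.61, 2.86 and 2.84 with FGF2 and the knockdown. The RNA of the licensing factor thus stood higher over that of its inhibitor in both FGF2 groups at d5, and the groups with and without the knockdown overlapped. The ratio of Rrm1 to Rrm2 lay between 1.53 and 1.80 over the 9 libraries at d2.5. It was 1.77, 1.53 and 1.65 in Ctrl+vehicle, 1.64, 1.67 and 1.59 in Ctrl+FGF2 and 1.77, 1.73 and 1.80 in Y/T dKD+FGF2. The knockdown libraries thus lay slightly above those of Ctrl+FGF2, and Ctrl+vehicle overlapped both. At d5 it was 2.74, 3.74 and 3.39 in Ctrl+vehicle, 6.61, 11.2 and 8.78 in Ctrl+FGF2 and 3.94, 4.33 and 4.50 in Y/T dKD+FGF2. None of these d5 groups overlapped. With 3 libraries a group an exact permutation test cannot give a p under 0.10, so the ratios are given without one.

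**Figure D4:**
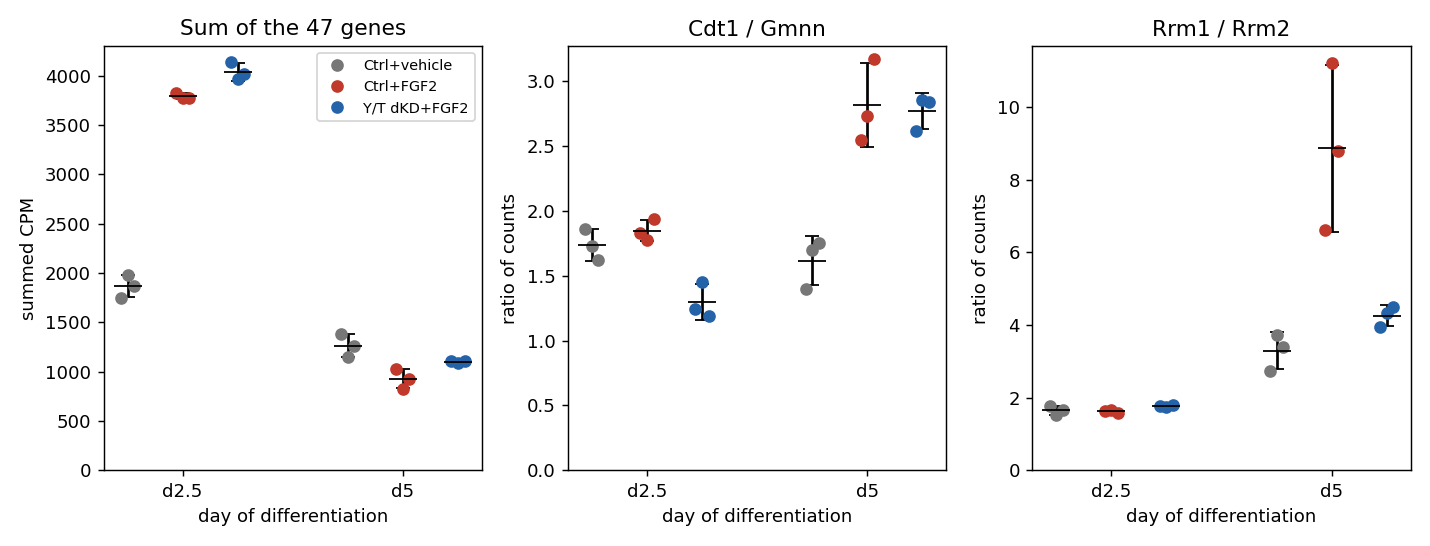
Summed CPM of the 47 replication genes (left) and the ratios of Cdt1 to Gmnn (middle) and Rrm1 to Rrm2 counts (right) in each library, with points for libraries and bars for mean ± SD (n = 3) by group at d2.5 and d5. The sum is near 3793 CPM in Ctrl+FGF2 beside 1867 CPM in Ctrl+vehicle at d2.5, and near 927 CPM beside 1264 CPM at d5. Levels were scaled within a day only, so sums are not compared between days. The Rrm1 to Rrm2 ratio reaches 11.2 in Ctrl+FGF2 at d5.

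Levels of the 6 ring subunits, which enter the complex in equal numbers, were compared with each other per kilobase of transcript. In Ctrl+FGF2 at d2.5, per kb of all annotated exons, Mcm6 was at 60.2 ± 0.945, Mcm4 at 45.3 ± 1.43 and Mcm2 at 21.2 ± 0.854 CPM per kb (mean ± SD, n = 3). Mcm3 (39.9 ± 0.899), Mcm5 (39.8 ± 1.56) and Mcm7 (38.5 ± 0.544) lay close together, and Mcm3 and Mcm5 did not differ beyond their spread. The highest subunit was 2.83 times the lowest on this scale but 1.52 times when the longest transcript was used as the length, which also moved Mcm7 to second place, so the order depends on the length chosen. With that second length, at d2.5 the ratio of highest to lowest was 1.60 in Ctrl+vehicle and 1.73 in Y/T dKD+FGF2. At d5 it was 2.92 in Ctrl+FGF2, above the 2.18 of Ctrl+vehicle and the 1.97 of Y/T dKD+FGF2. At d5 Mcm5 was the lowest ring subunit in Ctrl+vehicle and in Ctrl+FGF2 by either length.

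Because many of these genes moved together, their promoters were searched for the core words of E2F sites. RefSeq windows (build GRCm38.p6) from 250 bases before to 50 bases after a transcription start were matched for 39 of the 47 genes, in 46 windows; Prim2, Gmnn, Pole, Mcm4, Rfc2, Gins4, Gins1 and Gins2 had no entry. The words TTTCCCGC, TTTGGCGC, TTTCGCGC and TTTGCCGC were counted on both strands, and overlapping matches were each counted. At least 1 of them was in 14 of the 46 windows (30.4%), against 4.07% of the 11792 windows of genes tested at d2.5 and 2.26% of all 32851 windows. CCAAT was in 54.3% of the members' windows, 38.1% of those of genes tested and 37.4% of all. The word TTTGAA, a core of the elements that repress genes until G2, was in 17.4% of the members' windows, 1418 of the 11792 of genes tested and 17.9% of all. The FGF2 effects of the 14 genes with an E2F word and the 25 without one covered much the same range. The median log2 fold change at d2.5 was 1.23 with a word (0.01 to 1.45) and 1.08 without (0.38 to 1.77), and at d5 it was -0.71 and -0.50. A match is a description of letters and says nothing of binding.

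The 120 bases before the start are shown for 5 genes that mark the ends of the response, in lower case with the E2F words in capitals, 5′ to 3′ on the strand of the gene. Orc1 (chr4:108579334-108579453, plus strand) had the largest d5 fall, Mcm6 (chr1:128359706-128359825, minus strand) held most words, and Orc3 (chr4:34614943-34615062, minus strand) held a word although its RNA had no call for FGF2 on either day. Tk1 (chr11:117826015-117826134, minus strand) and Rrm2 (chr12:24708134-24708253, plus strand) held none in their windows although Tk1 had the largest d2.5 rise and Rrm2 one of the largest d5 falls.
Orc1: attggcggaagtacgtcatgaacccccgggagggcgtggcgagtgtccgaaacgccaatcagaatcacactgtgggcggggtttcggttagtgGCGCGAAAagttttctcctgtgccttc
Mcm6: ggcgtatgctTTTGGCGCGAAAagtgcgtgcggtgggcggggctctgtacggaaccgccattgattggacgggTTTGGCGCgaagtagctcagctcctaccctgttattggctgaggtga
Orc3: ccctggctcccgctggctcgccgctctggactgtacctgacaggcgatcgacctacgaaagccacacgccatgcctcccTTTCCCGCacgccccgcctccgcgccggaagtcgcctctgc
Tk1: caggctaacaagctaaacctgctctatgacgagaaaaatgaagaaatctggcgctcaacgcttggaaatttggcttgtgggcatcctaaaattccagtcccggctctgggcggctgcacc
Rrm2: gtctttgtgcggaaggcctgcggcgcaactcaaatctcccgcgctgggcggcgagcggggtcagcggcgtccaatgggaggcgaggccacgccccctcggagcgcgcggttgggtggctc

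Other genes of the pathway were read from 3 further lists. Beside their counts stand the shares of all genes tested, which for FGF2 were 33.5% higher and 34.1% lower at d2.5 and 23.5% and 23.7% at d5, and for the knockdown 10.8% higher and 13.6% lower at d2.5 and 15.6% and 16.1% at d5. Of 38 other replication factors 37 were tested, and FGF2 at d2.5 raised 33 and lowered 1 (median log2 fold change 1.00). The largest rises were those of the nucleases Dna2 (1.76) and Exo1 (1.65) and of Dscc1, a part of an alternative clamp loader (1.61), and the fall was that of Mcm9 (-0.25). At d5 FGF2 lowered 27 of them and raised 2 (median -0.58). Pif1, a helicase (-1.91), Clspn, which carries checkpoint signals from the fork (-1.77), and Dscc1 (-1.71) fell most, and Rnaseh2a (0.31) and Top1 (0.11) rose. The knockdown raised 13 and lowered 3 at d2.5 and raised 17 and lowered 1 at d5, led at d2.5 by Dna2 (0.45), Tipin (0.35) and Atad5 (0.23) upwards and Pold4 (-0.53), Recql4 (-0.25) and Chtf18 (-0.23) downwards. At d5 Dscc1 (1.16), Exo1 (1.06) and Pclaf, a partner of Pcna (1.03), rose most, and Orc4 (-0.16) fell.

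Of 11 other nucleotide supply genes, FGF2 raised 8 and lowered 2 at d2.5 (median log2 fold change 0.90) and raised 2 and lowered 3 at d5 (median -0.10). The d5 counts lay near the shares over all genes tested that day (23.5% higher and 23.7% lower). At d2.5 Shmt1 (2.09), an enzyme of folate metabolism, Dctpp1 (1.41) and Dut (1.14), which breaks down dUTP, rose most. Samhd1, which breaks deoxynucleotides down, went against them at -0.77, and Tk2, the mitochondrial thymidine kinase, at -0.29. At d5 Dck (-1.25), Dut (-0.60) and Cad (-0.47) fell, while Shmt1 (0.32) and Samhd1 (0.32) rose. At d2.5 the knockdown lowered Rrm2b (-0.20) and Cad (-0.18) and none of the 11 was called higher, where 10.8% of all genes tested were called higher and 13.6% lower. At d5 it raised Umps (0.21) and Cad (0.19) and lowered 4, led by Shmt1 (-0.74), Samhd1 (-0.37) and Rrm2b (-0.36).

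The 18 E2F and Rb regulators, which control replication genes, rose less uniformly. FGF2 at d2.5 raised 14 and lowered 3 (median log2 fold change 0.64). E2f2 (3.02), an activator, E2f8 (2.57), a repressor, and Mybl2 (1.63) rose most, and the pocket protein genes Rb1 (-0.53) and Rbl2 (-0.28), which restrain E2F, and Lin37 (-0.47) fell. At d5 FGF2 lowered 8 and raised 2 (median -0.17), with E2f7 (-1.85), Mybl2 (-1.60) and E2f8 (-1.45) lowest and Rbl2 (0.43) and E2f6 (0.20) raised. The knockdown raised 3 and lowered 1 at d2.5, E2f6 (0.27), Rbl1 (0.21) and Rb1 (0.16) upwards and E2f4 (-0.16) downwards, beside 10.8% higher and 13.6% lower of all genes tested. At d5 it raised 6, led by E2f7 (1.14), Mybl2 (1.10) and E2f8 (1.04), and lowered Rbl2 (-0.31) and Tfdp2 (-0.30).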

How the data were processed

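RNA-seq counts of 18 libraries were analysed. The authors deposited raw counts per gene for each library, in the layout of STAR gene counting with unstranded, forward and reverse columns. FastQC, STAR, Picard, featureCounts and mm10 are named in the submitters' processing notes, without versions or roles. The reverse column was used (96.0% to 96.6% of stranded counts). Entries that name no gene (27.0% to 34.4% of a library), which include multimapping reads, were left out. Gene counts per library were between 10377151 and 14698525. Of 55335 identifiers, 54587 matched GENCODE M21 with their version, from which symbols and lengths were taken.

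The quasi-likelihood test of edgeR 4.0.16 (R 4.3.3) was run on these counts after filterByExpr and TMM scaling, with Benjamini-Hochberg adjustment over all genes tested, with the 9 libraries of a day in 1 fit and all 18 for differences between days. Every adjusted p is from it, and each SE was derived from a log2 fold change and its F statistic (absolute change over root F). The test was checked on simulated counts. The members, the lists, the groups' comparisons and the alternatives were chosen with earlier results of these data known. Values per library were given for a set picked by role, with the 3 largest called changes in each direction and the exceptions to the majority in each comparison, and the pathway lists by count with their 3 largest changes. In the list of other nucleotide supply genes, 1 gene is not reported here. The set of promoters shown, the motif words and the paired ratios were chosen after values were seen. Alternatives were DESeq2 1.42.0, RLE and upper-quartile factors, library size alone, other filters on low counts, unstranded counts, a replicate block, stricter thresholds, only the groups compared, all 18 libraries in 1 fit, another gene length and leaving out each library.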

Additional observations from a re-analysis of the deposited data

Results flagged for a closer look

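Effects that differed between d2.5 and d5 were singled out among the genes given per library, by edgeR's test of the difference over all 18 libraries with adjusted p under 0.05. The difference is the log2 fold change at d5 minus that at d2.5. For FGF2 against vehicle it was negative in all of them and was Orc1 -3.15, Cdc6 -2.68, Cdt1 -1.80, Gmnn -2.49, Mcm2 -1.91, Mcm3 -2.19, Mcm4 -1.55, Mcm5 -2.43, Mcm6 -2.06, Mcm7 -1.71, Mcm10 -3.11, Cdc45 -2.75, Gins2 -1.15, Cdc7 -2.07, Dbf4 -2.52, Pcna -1.72, Rpa2 -1.10, Pola1 -2.11, Pold1 -1.36, Pole -2.33, Fen1 -1.50, Lig1 -1.59, Rrm1 -1.08, Rrm2 -2.47, Tyms -1.72, Tk1 -2.94, Chaf1a -2.0 and Chaf1b -1.81. For these genes FGF2 raised the RNA at d2.5, and at d5 all but Gins2 were called lower.

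For the knockdown under FGF2 the difference was positive for Orc1 1.48, Cdt1 0.99, Mcm2 0.71, Mcm3 0.56, Mcm4 0.35, Mcm5 1.06, Mcm6 0.51, Mcm7 0.38, Mcm10 0.93, Cdc45 1.20, Cdc7 0.69, Dbf4 0.42, Pola1 0.38, Pold1 0.67, Lig1 0.46, Rrm2 0.64, Tyms 0.29, Tk1 0.69 and Chaf1a 0.52, and negative for Rrm1 at -0.46. Each day is its own batch in the labels, so day and batch cannot be told apart. Without the Ctrl+FGF2 d5 replicate 2 library the knockdown differences of Mcm4, Mcm10, Dbf4, Pola1, Lig1, Rrm2, Tyms, Tk1 and Chaf1a were no longer called.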

How the results depend on the processing

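No median of the 47 genes turned its direction under any alternative run. Nor did any gene given per library that was called in the main or the alternative run. Changes of sign in genes called in neither were not counted. With a 2-fold minimum the calls were 27 (FGF2 at d2.5), 0 (knockdown at d2.5), 10 (FGF2 at d5), 5 (knockdown at d5), 0 (knockdown with FGF2 against vehicle at d5) and 3 (difference of the knockdown effect between days). At an adjusted p under 0.01, the knockdown at d2.5 gave 12 calls and its difference between days 14. All 18 libraries in 1 fit gave 12 calls for the knockdown at d2.5. Leaving out each library gave 11 to 20 calls for the knockdown at d2.5, 23 to 34 for the knockdown at d5 and 35 to 39 for FGF2 at d5. For the difference of the knockdown effect between days that range was 13 to 27 calls and its median log2 value was between 0.23 and 0.47, both lowest without Ctrl+FGF2 d5 replicate 2. For the knockdown with FGF2 against vehicle at d5 it was 9 to 18 calls. DESeq2 gave 46 (FGF2) and 13 (knockdown) calls at d2.5, and 37 and 27 at d5. Library size alone gave 31 calls for FGF2 at d5.

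Replicate numbers did not clearly pair the samples. Correlations of same-numbered libraries were between -0.08 and 0.04 at d2.5 and between -0.06 and 0.16 at d5. Other pairs were between -0.04 and 0.11 at d2.5 and between -0.15 and 0.05 at d5. The highest d5 values joined Ctrl+vehicle to Ctrl+FGF2 in replicate 1 (0.145) and replicate 2 (0.157), so whether these were paired was not settled. With a replicate block the calls were 46 and 19 at d2.5 and 38 and 32 at d5 for FGF2 and the knockdown, 46 and 14 for the knockdown with FGF2 against vehicle at d2.5 and d5, and 46 and 26 for the differences between days. Depth limited Orc1 at d5 most.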
